A study of Rattus norvegicus with 3 samples.

Results

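The genes described here encode drug- and lipid-metabolising enzymes: cytochromes P450, UDP-glucuronosyltransferases (UGT) and cytosolic sulfotransferases. The members were chosen with earlier results of these data known. They were defined by symbol, as genes with a single symbol starting with Cyp and a digit, Ugt and a digit, or Sult. The sterol demethylase gene Cyp51 was left out. This rule gave 64 of 4390 named genes, read by 66 of 5760 probes, with 46 Cyp genes, 12 UGT genes and 6 sulfotransferase genes. The tissue was rat kidney inner medulla, the innermost zone, where collecting ducts concentrate the urine. On each of 3 spotted arrays, RNA of rats treated with lithium (Li) for 1 month was labelled red and RNA of control rats green, in the study of lithium-induced nephrogenic diabetes insipidus (Li-NDI). Arrays 1 and 2 carried pools of 2 rats per channel, and array 3 carried 1 rat per channel. The labels give neither strain, sex, age nor lithium dose.

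P450 enzymes insert oxygen into lipids, steroids and foreign compounds. UGT enzymes then join glucuronic acid to such products and sulfotransferases join sulfate, which makes them easier to excrete. In the kidney, Cyp2c and Cyp2j enzymes turn arachidonic acid into epoxides and Cyp4a enzymes turn it into a hydroxy acid (20-HETE), lipids known to act on vessel tone and sodium transport.

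The value of a probe was a deposited log ratio, here minus its array's median, and probes of 1 gene were averaged. A ratio above 0 was read as higher in lithium medulla. That direction is likely from the labels, which put lithium RNA in channel 1, but the table does not state it. The vasopressin-regulated water channel gene Aqp2, which lithium is known to lower, read 0.11, 0.26 and 0.14 on arrays 1, 2 and 3. With the ratio read as lithium over control, that sign is opposite to the known response. Whether the ratios are turned was not tested. Of 14 collecting duct markers, Aqp2 among them, 13 means lay above 0 with a median of 0.12, against 55.7% of all features. Hsd11b2 and Krt19 passed the test, against 0.445% of all features tested. The log base is not stated either, so a fold is given for base 10 and for base 2. Every array had the same dye orientation, so a dye effect and lithium cannot be told apart for any gene. A ratio holds no abundance, and fewer cells of a type cannot be told apart from less RNA per cell. For the same reason the labelled tissue could not be checked by the level of its markers. Of the collecting duct marker probes 0 of 16 were empty on array 3, and all 14 of those genes were measured on every array.

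None of the enzyme genes passed the test across the table. Of the 64 genes, 35 had a value on all 3 arrays and could be tested, and 0 of them reached a limma adjusted p of 0.05, against 0.445% of all 3819 features tested. Unadjusted p-values under 0.05 were found for 2 of the 35 genes (5.71%), against 17.2% of all features. Their 95% intervals spanned 0.09 to 0.25 to each side of the mean, with a median of 0.10. If the logs are decimal, that half-width amounts to 1.26-fold, and if binary to 1.07-fold. The intervals are before adjustment, so a call over all features needed a mean further from 0 than its half-width. Cyp4b1, with a mean of 0.18 and an interval from 0.07 to 0.29, had a limma adjusted p of 0.153. The missing calls do not show that the genes stayed the same. The median mean ratio of the 35 genes was 0.02, against 0.01 over all features, with 19 genes above 0, 15 below and 1 at 0. All 3 ratios lay above 0 for 11 genes (31.4%), against 24.1% of all features, and all 3 lay below 0 for 4 genes (11.4%), against 14.6%. The median SD between arrays was 0.07 for these genes and 0.07 for all features.

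**Figure D1:**
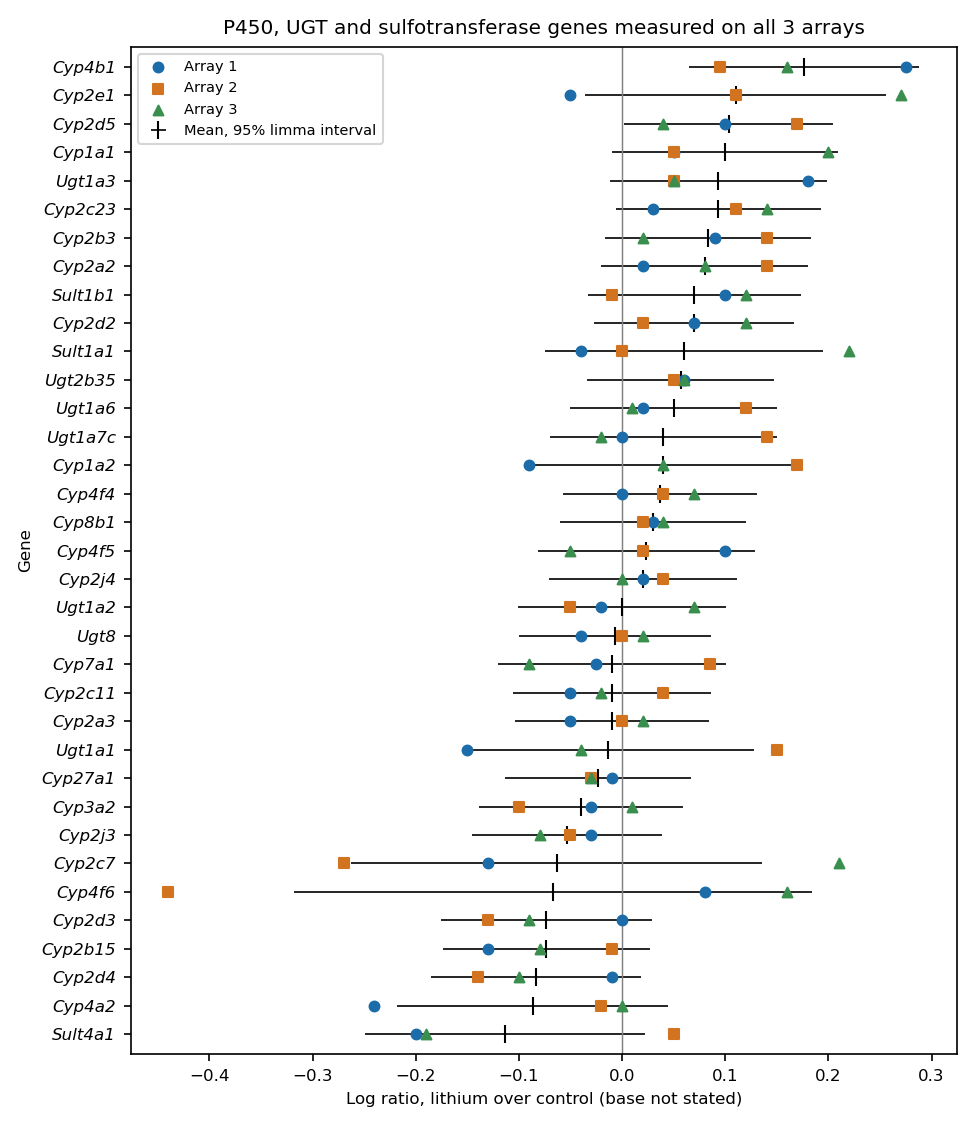
Log ratio (horizontal axis, lithium over control, base not stated) of the 35 enzyme genes with a value on every array (vertical axis, ordered by mean). Points are the 3 arrays, ticks are means and lines are 95% limma intervals; Cyp4b1 and Cyp2d5 are the 2 genes whose interval lies apart from 0 before adjustment.

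Genes of arachidonate metabolism gave no call between lithium and control medulla. The 11 genes of the Cyp2c, Cyp2j and Cyp4a families lie in families of close relatives, to which a probe may also bind, so the reading of a single relative is uncertain. Of the 11, 6 had a value on all 3 arrays, with 2 means above 0, 4 below and a median of −0.03. None of the 6 passed, against 0.445% of all features tested, and the smallest limma adjusted p was 0.311. Their intervals reached as low as −0.26 for Cyp2c7 and −0.22 for Cyp4a2, and as high as 0.19 for Cyp2c23.

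Cyp2c23, the main epoxide-forming P450 of rat kidney, had ratios of 0.03, 0.11 and 0.14 on arrays 1, 2 and 3. All 3 arrays lay above 0, and it was the only one of these 11 genes with 3 ratios above 0. The mean was 0.09 ± 0.06 (SD, n = 3, limma adjusted p = 0.311), with a 95% interval from −0.01 to 0.19. With decimal logs that mean would be 1.24-fold, and with binary logs 1.07-fold. Cyp2c11, a male-specific form in rat liver, read −0.05, 0.04 and −0.02, and its mean of −0.01 ± 0.05 had an adjusted p of 0.926. Its arrays lay on both sides of 0. Cyp2c7, a liver form that also acts on retinoids, read −0.13, −0.27 and 0.21. Arrays 1 and 2 were low and array 3 was high, and the mean of −0.06 ± 0.25 had an adjusted p of 0.743, the widest spread among the 6 genes.

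Only arrays 1 and 2 measured Cyp2c13 and Cyp2c22, and only array 2 measured Cyp2c12 and Cyp2c6v1. Cyp2c13, a male-specific liver form, read −0.07 and −0.08. Cyp2c22 read 0.03 and −0.08. Cyp2c12, known in rat liver as the female-specific form, read −0.97 on array 2, and Cyp2c6v1, a constitutive liver form, read −0.48. These last values rest on 1 array each and were not tested.

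Both Cyp2j genes were measured on all arrays. Cyp2j3, whose enzyme forms arachidonate epoxides, read −0.03, −0.05 and −0.08, all below 0, with a mean of −0.05 ± 0.03 (SD, n = 3, limma adjusted p = 0.517). Cyp2j4 had a deposited ratio of exactly 0 on every array, the 1 probe of 5760 with that property. Centring gave 0.02, 0.04 and 0.00 and a mean of 0.02 (adjusted p = 0.827), so its small spread is that of the array medians. For the fatty acid hydroxylase gene Cyp4a2 the ratios were −0.24, −0.02 and 0.00. Array 1 alone was low, and the mean of −0.09 ± 0.13 had an adjusted p of 0.461 with an interval from −0.22 to 0.04. Its relative Cyp4a8 read −0.24 on array 1 and −0.01 on array 3 and was empty on array 2. Both Cyp4a genes were thus low on array 1 and near 0 on array 3.

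**Figure D2:**
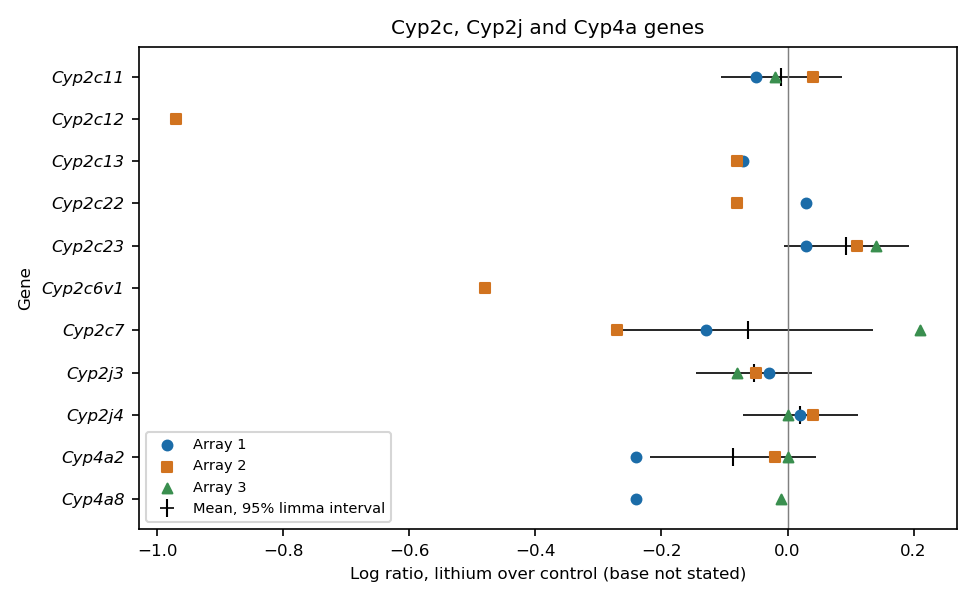
Log ratio (horizontal axis, lithium over control, base not stated) of the 11 Cyp2c, Cyp2j and Cyp4a genes (vertical axis). Points are arrays, ticks and lines are the mean and 95% limma interval of the 6 genes with 3 values; Cyp2c12 at −0.97 and Cyp2c6v1 at −0.48 rest on array 2 alone.

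Other arachidonate enzymes, from a list of cyclooxygenases, lipoxygenases, phospholipases and synthases, gave 0 calls among 9 genes measured on all arrays, against 0.445% of all features, with 4 means above 0 and 5 below. Unadjusted limma p-values under 0.05 were found for 4 of the 9 (44.4%), against 17.2% of all features. The cytosolic phospholipase gene Pla2g4a, whose enzyme frees arachidonate, had a mean of −0.13 ± 0.06 (SD, n = 3, limma adjusted p = 0.188). The soluble epoxide hydrolase gene Ephx2, whose enzyme breaks down arachidonate epoxides, read −0.12, −0.09 and −0.19, all below 0, with an adjusted p of 0.183. Ephx1, the microsomal hydrolase, read 0.02, 0.05 and 0.06 (adjusted p = 0.615).

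The highest and lowest ratios among the 35 tested genes lay outside these families. Cyp4b1, a P450 that hydroxylates fatty acids and activates some lung toxins, had ratios of 0.275, 0.095 and 0.16 on arrays 1, 2 and 3, all above 0. Its mean of 0.18 ± 0.09 (SD, n = 3) was the highest of the 35, 1.502-fold with decimal or 1.13-fold with binary logs (0.666 and 0.885 with the ratio turned, when it would be the lowest), with a limma adjusted p of 0.153. Cyp4b1 was read by 2 probes, which stood at 0.14 and 0.41 on array 1 and at 0.09 and 0.10 on array 2. One of them was empty on array 3, so its mean and SD mix probes. The probe with 3 values alone had a mean of 0.13 (adjusted p = 0.192).

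Of the other Cyp4 genes, Cyp4f6 read 0.08, −0.44 and 0.16. Array 2 stood apart, and the mean of −0.07 ± 0.33 had an adjusted p of 0.788 and was 0.12 without array 2. Cyp4f4 and Cyp4f5 had means of 0.04 and 0.02. Empty on array 3, Cyp4f1 read −0.06 and −0.08, and Cyp4v3, a fatty acid hydroxylase gene, read −0.25 and −0.33.

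P450 genes of drug and toxicant metabolism (Cyp1, Cyp3 and the remaining Cyp2 genes) numbered 19, of which 12 were tested, with 7 means above 0, 5 below and a median of 0.06. Of the 4 Cyp2d genes 2 means lay above 0 and 2 below. They are close relatives to which a probe may also bind, so the reading of each is uncertain. Cyp2d5 read 0.10, 0.17 and 0.04 and averaged 0.10 ± 0.07 (SD, n = 3, limma adjusted p = 0.279), and Cyp2d2 averaged 0.07 (adjusted p = 0.416), each above 0 on every array. Before centring, Cyp2d2 read −0.02 on array 2. Cyp2d4 read −0.01, −0.14 and −0.10 and averaged −0.08 ± 0.07 (adjusted p = 0.371), and Cyp2d3 read 0.00, −0.13 and −0.09 and averaged −0.07 ± 0.07 (adjusted p = 0.417). No test of the difference between relatives was run.

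Cyp1a1, the dioxin-inducible P450, read 0.05, 0.05 and 0.20, all above 0, with a mean of 0.10 ± 0.09 (SD, n = 3, limma adjusted p = 0.325). Its neighbour in the family, Cyp1a2, read −0.09, 0.17 and 0.04 (adjusted p = 0.753). Cyp2e1, the ethanol-inducible form, read −0.05, 0.11 and 0.27, so that array 1 lay below 0 and array 3 was the highest, and the mean of 0.11 ± 0.16 had an adjusted p of 0.398. Among Cyp2b genes, Cyp2b15 read −0.13, −0.01 and −0.08 with a mean of −0.07 ± 0.06 (adjusted p = 0.409). Cyp2b3 had a mean of 0.08 (adjusted p = 0.360), above 0 on all 3 arrays. Cyp2a2 had a mean of 0.08, Cyp2a3 one of −0.01 and the drug-metabolising Cyp3a2 one of −0.04. The 7 genes empty on array 3 ranged widely. Cyp1b1 read −0.96 and Cyp2b21 read −0.32, each on array 2 alone. The olfactory form Cyp2g1 read −0.07 and −0.20 on arrays 1 and 2, and Cyp3a18 read −0.17 and −0.10. Cyp2b12 read −0.16 and 0.01, the lung form Cyp2f4 read 0.08 and 0.07, and Cyp3a9 read −0.06 on array 1 alone.

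Several of the high ratios above lay on array 3, where some liver transcripts were also high. Ratios of at least 0.2 were found on array 3 for 4 of the 35 genes (11.4%), namely Cyp2e1, Sult1a1, Cyp2c7 and Cyp1a1, against 3.56% of all features. Of 11 hepatocyte markers measured on every array, 10 lay above 0 on array 3, with a median of 0.09 and a range from 0.00 to 0.70. On array 1 the same markers had 7 above 0, a median of 0.03 and a range from −0.18 to 0.10. On array 2 they had 7 above 0, a median of 0.10 and a range from −0.32 to 0.15, so array 2 matched array 3 in the median but not in the highest values. The high values of array 3 belonged to 4 markers, with Alb at 0.70, Ahsg at 0.30, Apob at 0.28 and Tdo2 at 0.20, and the others lay between 0.00 and 0.10. Another 6 markers were empty on array 3, among them the fibrinogen genes Fgg, at −0.79 and −0.82 on arrays 1 and 2, and Fga, at −0.28 and −0.59. Alb, the albumin gene, was the highest feature of array 3 among those with 3 values. The part of liver-type RNA in these values was not tested. Proximal tubule markers, from a segment outside the inner medulla that is rich in P450 enzymes, had 12 of 20 genes above 0 on array 3, with a median of 0.03 and a range from −0.22 to 0.18.

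P450 genes of steroid, bile acid and vitamin D metabolism were mostly not measured on array 3. Of 10 genes, 3 had all values, and their means lay between −0.02 and 0.03 with adjusted p from 0.733. Cyp8b1, a bile acid hydroxylase gene, read 0.03, 0.02 and 0.04. Cyp27a1, the sterol 27-hydroxylase gene, read −0.01, −0.03 and −0.03. Cyp7a1, the rate-limiting enzyme of bile acid synthesis in liver, had 2 probes and a mean of −0.01. The other 7 were empty on array 3. The aromatase gene Cyp19a1 read −0.23 and −0.42 on arrays 1 and 2, the lowest of these. Cyp7b1 read −0.08 and −0.23, and the adrenal 21-hydroxylase gene Cyp21a1 read −0.01 and −0.27. The aldosterone synthase gene Cyp11b2 read −0.08 and 0.00, and the side-chain cleavage gene Cyp11a1 read −0.07 and 0.00. Cyp27b1, the renal enzyme that activates vitamin D, read −0.02 and 0.12, and Cyp17a1 read −0.23 on array 2 alone.

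The 12 UGT genes included 7 of the Ugt1a locus. In the current rat gene table, of assembly GRCr8, all 7 start at different places and end at the same base, since each has its own first exon and promoter and they share the remaining exons. Ugt1a3 read 0.18, 0.05 and 0.05 on arrays 1, 2 and 3, all above 0, with a mean of 0.09 ± 0.08 (SD, n = 3, limma adjusted p = 0.337), the highest of the UGT genes tested. Ugt1a1, the bilirubin-conjugating form, read −0.15, 0.15 and −0.04, on both sides of 0, with a mean of −0.01 ± 0.15 (adjusted p = 0.933), the lowest of those tested. Ugt1a2, Ugt1a6 and Ugt1a7c had means of 0.00, 0.05 and 0.04. Ugt1a8 read −0.06 and −0.28 and Ugt1a5 read −0.55 and −0.91 on arrays 1 and 2, and both were empty on array 3. Which exon each probe covers is not given in the sources used here. A probe in the shared exons would read all 7 together.

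The promoters of Ugt1a8, Ugt1a3 and Ugt1a1 are shown. These genes of 1 locus had an incomplete reading, the highest and the lowest mean of the UGT genes tested, in that order. None of the 3 was called. Because the exon each probe covers is unknown, no reading could be tied to a first exon or its promoter. Ugt1a5, with the lowest ratios of the locus, had no entry in the promoter table, and Ugt1a8 is the other member empty on array 3. Each runs from 250 bases before to 50 after the start site in RefSeq's table for GRCr8, on the plus strand, 5′ to 3′, at chr9:96174649-96174948, chr9:96227884-96228183 and chr9:96248893-96249192. Capitals mark GTTAAT in either orientation, the half-site of the liver and kidney factor HNF1.

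Ugt1a8: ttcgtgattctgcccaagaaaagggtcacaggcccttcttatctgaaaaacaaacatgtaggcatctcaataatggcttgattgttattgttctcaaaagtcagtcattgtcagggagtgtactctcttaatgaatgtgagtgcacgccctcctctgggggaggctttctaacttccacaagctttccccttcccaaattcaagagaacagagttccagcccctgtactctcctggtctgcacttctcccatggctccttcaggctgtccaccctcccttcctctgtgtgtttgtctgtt

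Ugt1a3: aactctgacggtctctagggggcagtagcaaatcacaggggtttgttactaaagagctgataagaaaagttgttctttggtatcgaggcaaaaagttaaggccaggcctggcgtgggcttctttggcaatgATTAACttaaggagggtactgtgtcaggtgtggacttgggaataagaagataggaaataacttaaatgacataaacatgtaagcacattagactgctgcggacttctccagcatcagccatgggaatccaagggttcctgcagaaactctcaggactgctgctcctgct

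Ugt1a1: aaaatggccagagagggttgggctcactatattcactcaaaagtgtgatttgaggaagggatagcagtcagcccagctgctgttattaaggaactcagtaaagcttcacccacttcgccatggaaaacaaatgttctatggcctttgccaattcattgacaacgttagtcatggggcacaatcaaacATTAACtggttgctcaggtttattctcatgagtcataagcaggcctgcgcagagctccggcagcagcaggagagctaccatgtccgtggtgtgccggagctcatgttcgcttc

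The 3 windows were 40.5% to 43.7% identical in pairwise global alignment. GTTAAT was found on the minus strand in the Ugt1a3 and Ugt1a1 windows and in neither orientation in the Ugt1a8 window. It was present, on either strand, in 7.45% of 33469 promoter windows and in 17.6% of the 51 windows that matched these enzyme genes. TATAAA, the TATA box, was in none of the 3 windows, in 14.2% of all windows and in 29.4% of the 51. The letters describe the windows and show neither binding nor a cause.

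Among the other UGT genes, Ugt2b35 read 0.06, 0.05 and 0.06 on arrays 1, 2 and 3, above 0 on each with an SD of 0.01, and its limma adjusted p was 0.483. Ugt8, which galactosylates ceramide rather than drugs, had a mean of −0.01. Ugt2b and Ugt2b7, steroid- and drug-conjugating forms, were empty on array 3 and read −0.28 and −0.36, and −0.37 and −0.52, on arrays 1 and 2. Whether a Ugt2b probe also binds its relatives could not be checked here. The olfactory form Ugt2a1 read 0.06 on array 1 alone.

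Of 6 sulfotransferase genes 3 were tested. Sult4a1, a brain form without a settled substrate, read −0.20, 0.05 and −0.19 on arrays 1, 2 and 3, with array 2 apart from the others. Its mean of −0.11 ± 0.14 (SD, n = 3) was the lowest of the 35 tested genes, 0.770-fold with decimal or 0.924-fold with binary logs, at a limma adjusted p of 0.360. Turned, it would be the highest, at 1.298-fold and 1.082-fold. Sult1b1, which sulfates phenols and thyroid hormone, read 0.10, −0.01 and 0.12, with a mean of 0.07 ± 0.07 (adjusted p = 0.449). Sult1a1, the phenol sulfotransferase gene, read −0.04, 0.00 and 0.22, high on array 3 alone (adjusted p = 0.629). The hydroxysteroid sulfotransferase gene Sult2a1 read −0.41 and −0.93 and Sult1c3 read −0.32 and −0.35 on arrays 1 and 2, and both were empty on array 3. Sult1d1 was empty there too and read −0.05 and −0.01. A probe that the annotation gives to Sult2a2 and Sult2a1 together, which the choice by single symbol left out, read −0.26 and −0.50.

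Empty values on array 3 were frequent among these genes. Of the 66 enzyme probes 29 (43.9%) had no value on array 3, against 1473 of all 5760 probes (25.6%). The share was 63.6% for the steroid, bile acid and vitamin D P450 probes, 3 of 6 for sulfotransferases, 41.7% for UGT and 36.4% for the Cyp2c, Cyp2j and Cyp4a genes. The Cyp2j, Cyp4a and Cyp2d families had a value there for every probe. Hepatocyte markers had 9 of 22 probes empty (40.9%) and proximal tubule markers 5 of 26 (19.2%). Empty values were fewer on the other arrays, with 5 and 3 of the 66 enzyme probes on arrays 1 and 2. Among all 5760 probes, 178 and 78 were empty there, so the enzyme probes had the larger share on every array. Why a value was left empty is not given in the sources used here. Array 3 was also the array with 1 rat per channel, so its empty values cannot be told apart from that rat pair.

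**Figure D3:**
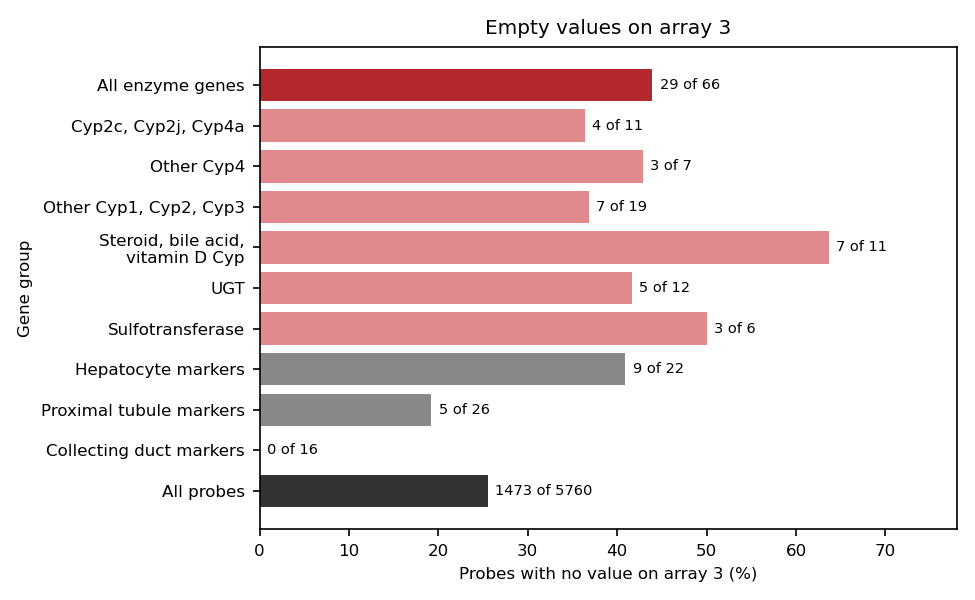
Share of probes without a value on array 3 (horizontal axis, %) for the enzyme genes (dark red), their classes (light red), marker lists (grey) and all probes (black). Labels give empty probes of all probes; 29 of 66 enzyme probes were empty, against 1473 of 5760.

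The lowest ratios of the enzyme genes were found where array 3 was empty. Genes empty on array 3 had a median of −0.25 on array 2 over 26 genes, and genes measured on array 3 had one of 0.04 over 35 genes. Over all features the medians were −0.18 and 0.04, so the enzyme genes followed a pattern of the whole table. Ratios under −0.3 on array 2 were found for 11 of the 26 (42.3%) and for 1 of the 35 (2.86%), against 30.4% and 2.82% of all such features. On array 1 the medians were −0.07 and −0.005 for the enzyme genes and −0.08 and 0.01 for all features.

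Of 21 enzyme genes empty on array 3 and measured on both others, 15 (71.4%) lay below 0 on both arrays, against 65.7% of all such features. Both ratios lay under −0.3 for 4 (19.05%), namely Ugt1a5, Sult2a1, Ugt2b7 and Sult1c3, against 9.6%. Cyp2f4 alone lay above 0 on both. A further 5 genes had a value on array 2 only, and all 5 lay below 0 with a median of −0.48. Over all 106 features measured on array 2 only, 92.5% lay below 0 with a median of −0.33. When features with at least 2 arrays entered the fit, 57 enzyme genes were tested and 0 passed, against 0.811% of 4930 features. The smallest limma adjusted p-values among the 4 genes under −0.3 on both arrays were 0.0723 for Ugt1a5 and Ugt2b7 and 0.0793 for Sult1c3.

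**Figure D4:**
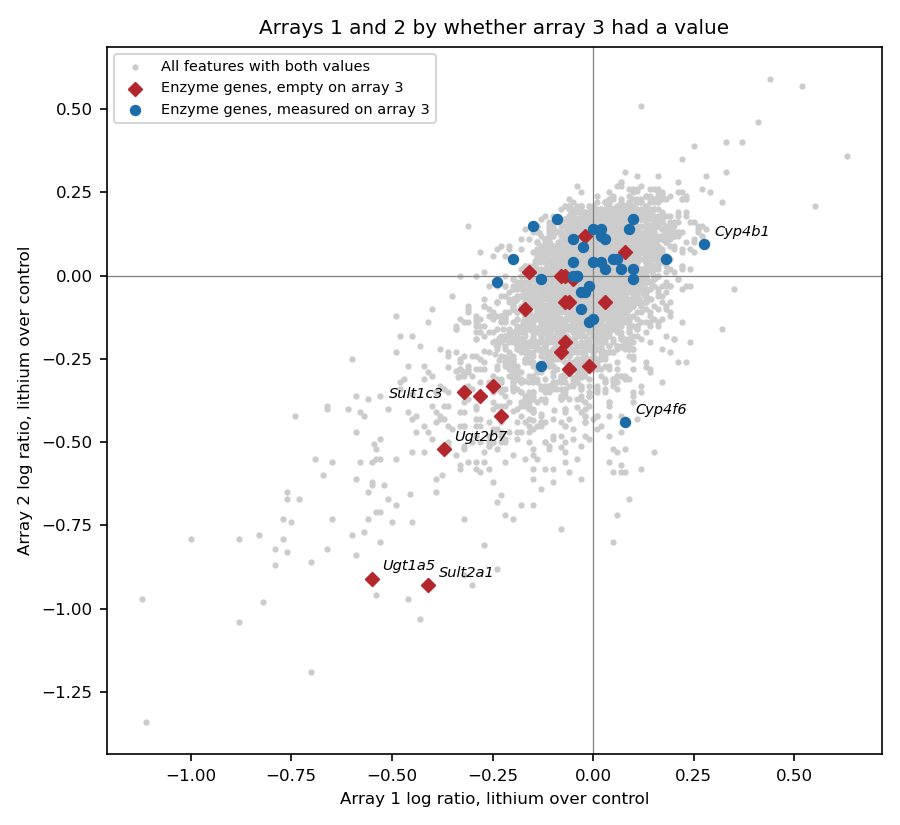
Log ratio on array 1 (horizontal axis) and array 2 (vertical axis), both lithium over control with the base not stated, for all features with both values (grey) and for enzyme genes empty (red diamonds) or measured (blue circles) on array 3. The red diamonds reach down to Ugt1a5 and Sult2a1, and of the blue circles Cyp4f6 alone lies under −0.3 on array 2.

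The arrays ordered the enzyme genes differently. Across the 35 genes with all values, Pearson's r was 0.09 between arrays 1 and 2, 0.33 between arrays 1 and 3 and −0.09 between arrays 2 and 3. The same values over all 3819 features were 0.46, 0.48 and 0.16. Across the 56 enzyme genes with values on arrays 1 and 2, r was 0.72, against 0.62 over 4902 features. These are descriptions across genes, which are not independent replicates and share their arrays.

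Genes that serve these enzymes gave 0 calls in 3 lists (partners, cosubstrate genes and receptors), against 0.445% of all features tested. In that order, 2 of 10, 2 of 5 and 1 of 11 genes had an unadjusted limma p under 0.05. Over all features that share was 17.2%. Of 10 electron partners, haem enzymes and epoxide hydrolases, 5 means lay above 0 and 5 below, and Por, the reductase that feeds electrons to P450 enzymes, read −0.06, −0.06 and −0.01 (limma adjusted p = 0.605). Of 5 genes that supply or remove glucuronic acid and sulfate, 1 lay above 0 and 4 below. The steroid sulfatase gene Sts, whose enzyme removes sulfate from steroids, read −0.19, −0.17 and −0.18, close together and all below 0, with a mean of −0.18 ± 0.01 (SD, n = 3, adjusted p = 0.117). The beta-glucuronidase gene Gusb, whose enzyme removes glucuronic acid, read 0.13, 0.13 and 0.11, all above 0, with a mean of 0.12 ± 0.01 (adjusted p = 0.183). Of 11 receptors and factors that control drug-metabolising genes 10 means lay above 0, against 55.7% of all features. Their median was 0.05, against 0.01 over all features. The aryl hydrocarbon receptor gene Ahr read 0.09, 0.14 and −0.02 (adjusted p = 0.464), and the xenobiotic receptor gene Nr1i2 read 0.01, −0.09 and 0.09 (adjusted p = 0.973). In the list of other phase I and II enzymes, 1 of 13 genes passed on the higher side, against 0.236% of all features, the retinaldehyde dehydrogenase gene Aldh1a1. It read 0.33, 0.31 and 0.25, all above 0, with a mean of 0.30 ± 0.04 (SD, n = 3, limma adjusted p = 0.0451). Its adjusted p was 0.0375 to 0.0486 without centring or with other centring, 0.00858 with arrays scaled to the same spread and 0.00465 with a robust prior. With array weights, a fit that called 27.6% of all features, its adjusted p was 0.0004. It did not pass with features on at least 2 arrays (0.0519), with no prior (0.377) or with 1 array left out (0.275 to 0.743). The remaining 12 lay between −0.20 and 0.14 in the mean.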

How the data were processed

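The deposited table held, per the file headers, 1 value per probe and array, and its values had 2 decimals and both signs. They were used as log ratios. No source used here names the scanner, background correction, normalization, filter or log base. Column medians were −0.02, −0.04 and 0.00, and scale, centring and direction stayed unknown. Empty probes numbered 178, 78 and 1473 on arrays 1, 2 and 3. No intensities were used here, so depth of signal is unknown and the number of arrays limits precision. The array labels name different rats, so the spread includes that between rats or pools.

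Probes were named from the platform's public annotation. All 66 member probes matched a gene in the GRCr8 gene table, with 0 changed symbols. Array medians were subtracted, probes of 1 gene ID averaged, and the 3819 of 5086 features measured on all 3 arrays tested. The test was limma 3.58.1 in R 4.3.3 (intercept-only lmFit, eBayes, Benjamini-Hochberg, two-sided). The fit was also run on simulated arrays of equal spread, unlike the real arrays, whose deposited SDs were 0.14, 0.20 and 0.12. That run does not show how small a change in these genes could be called. Python 3.11.15, pandas 2.3.3 and matplotlib 3.10.9 made tables and figures. The members and gene lists were chosen with earlier results of these data known, so lists are described by counts. Genes named in full were all Cyp2c, Cyp2j and Cyp4a genes, the 6 highest and 6 lowest means, the highest and lowest UGT and sulfotransferase means, genes empty on array 3 with both ratios over 0.3 from 0, and genes whose probes differed by over 0.2. Other genes were named after their values were seen. Alternatives changed centring, scale, weights, prior, missing values, probes, threshold and replicates.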

Additional observations from a re-analysis of the deposited data

How the results depend on the processing

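The enzyme genes tested numbered 35 in the main fit, 57 with at least 2 arrays and 56 without array 3. Among the genes tested, limma called 0 in every alternative but that with array weights. The weights of arrays 1, 2 and 3 were 4.52, 0.371 and 0.596. With them limma called 9 of 35 genes (25.7%), against 27.6% of all features, so that fit followed array 1. Over all features, 17 calls became 98 with arrays scaled to the same spread, 1055 with array weights, 94 with a robust prior, 40 with features on at least 2 arrays, 49 at an adjusted p of 0.10, 11 with single probes and 0 with no prior. Without any 1 array the calls were 0, from 0 to 0. The median ratio of the enzyme genes was 0.0033 without centring, −0.025 with at least 2 arrays, and −0.0275 to 0.03 with 1 array left out, the lowest without array 3, which added genes empty there. Genes of 1 sign numbered 15 in the main fit and 12 without centring. They numbered 13 with print blocks centred and 14 with centring on features measured on all 3 arrays. Without centring, 51.4% of the tested enzyme genes and 45.2% of all features had means above 0, against 54.3% and 55.7% in the main fit. Genes of 1 sign numbered 32 with at least 2 arrays and between 19 and 37 with 1 array left out. The setting with at least 2 arrays added 22 genes with 2 ratios. Leaving out an array both lowered the number of ratios that had to share a sign and, without array 3, raised the number of genes to 56. Many of the 287 values of 27 named genes under alternatives could not change sign. A changed prior, the entry of features with at least 2 arrays, and single probes of genes with 1 probe leave the mean as it was. Of the 287 values 8 changed sign, which is therefore no measure of how stable the signs were. The sign changes were Cyp2c11 at 0.0133 with print blocks centred, and Cyp2e1 at −0.0045 and Cyp4f6 at 0.0536 with array weights. With 1 array left out, Cyp2c11 ran from −0.035 to 0.01, Cyp2c22 from −0.08 to 0.03, Cyp2c7 from −0.2 to 0.04, Cyp4f6 from −0.18 to 0.12 and Ugt1a1 from −0.095 to 0.055. Each of these reversals had no call, and where no cause is given it was not tested. No paired analysis was possible because each array already sets lithium against control and the arrays form 1 group. The 95% intervals of single genes, 0.09 or wider to each side, limit what 3 arrays can show.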
